A study of Mus musculus with 8 samples.

Results

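The genes described here were 6 members of the membrane-spanning 4-domains family (Ms4a4a, Ms4a4c, Ms4a6b, Ms4a6c, Ms4a6d and Ms4a7) and the related pair Tmem176a and Tmem176b, 8 of the 52636 gene identifiers in the count table. They were found by Ensembl identifier through GENCODE vM21 symbols, and they had been chosen by their measured difference between the LPS and vehicle libraries compared here, so their LPS response is given as a description, without p-values. Calls of the fit across all genes are stated for them only beside the share of all genes called, and they are no independent test of genes chosen this way. All 8 were among the 13847 genes that passed a filter on low counts. Primary microglia of wild-type C57BL/6 mice (C57BL/6N pups in the methods), shaken off mixed glial cultures of newborn brains, were kept in DMEM with 10% serum and 10 ng/ml CSF-1, the growth factor on which these cells depend. They received vehicle or 5 µg/ml LPS, a bacterial cell wall component sensed by Toll-like receptor 4, for 24 h. RNA was sequenced from 4 libraries per group, which the labels call biological replicates, with 20071921 to 30604447 counted reads per library. The labels and the methods of the study name different library kits, 1 of them stranded, and neither gives the strand setting of the counting.

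MS4A proteins span the membrane several times and act beside receptors and channels. The founding members are CD20 on B cells and the beta chain of the high-affinity IgE receptor on mast cells. Ms4a4a, Ms4a6 genes and Ms4a7 are expressed by macrophages, and the human MS4A cluster holds common variants linked to Alzheimer's disease and to soluble TREM2. TMEM176A and TMEM176B resemble MS4A proteins, sit in endosomal membranes as cation channels, and have been linked to antigen presentation and to restraint of the inflammasome.

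After LPS, 5 of the 6 Ms4a genes were higher, by 4.86-fold for Ms4a6c to 48.4-fold for Ms4a4c, and both Tmem176 genes were lower, by 11.0-fold and 19.0-fold (ratios of mean CPM, the counts scaled to library size after TMM normalization). Ms4a7 had a higher mean but overlapping groups. The edgeR quasi-likelihood test across all genes, with an adjusted p under 0.05, called the same 5 genes higher and the same 2 lower. It also called 30.3% of all tested genes higher and 33.8% lower, 64.1% in all. The 5 had log2 fold changes of 2 or more, and 7.08% of all tested genes were called with such a rise, while the 2 had -2 or less and 9.42% were called with such a fall. Groups did not overlap for 7 of the 8 genes, against 60.2% of all tested genes, 28.7% with LPS higher and 31.5% with LPS lower. The median log2 fold change was 2.32 over the 8 genes and -0.11 over all tested genes. Since the response chose these genes, nothing is read from these counts. In RNA of whole cultures, fewer cells of a type and less RNA per cell cannot be told apart.

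**Figure D1:**
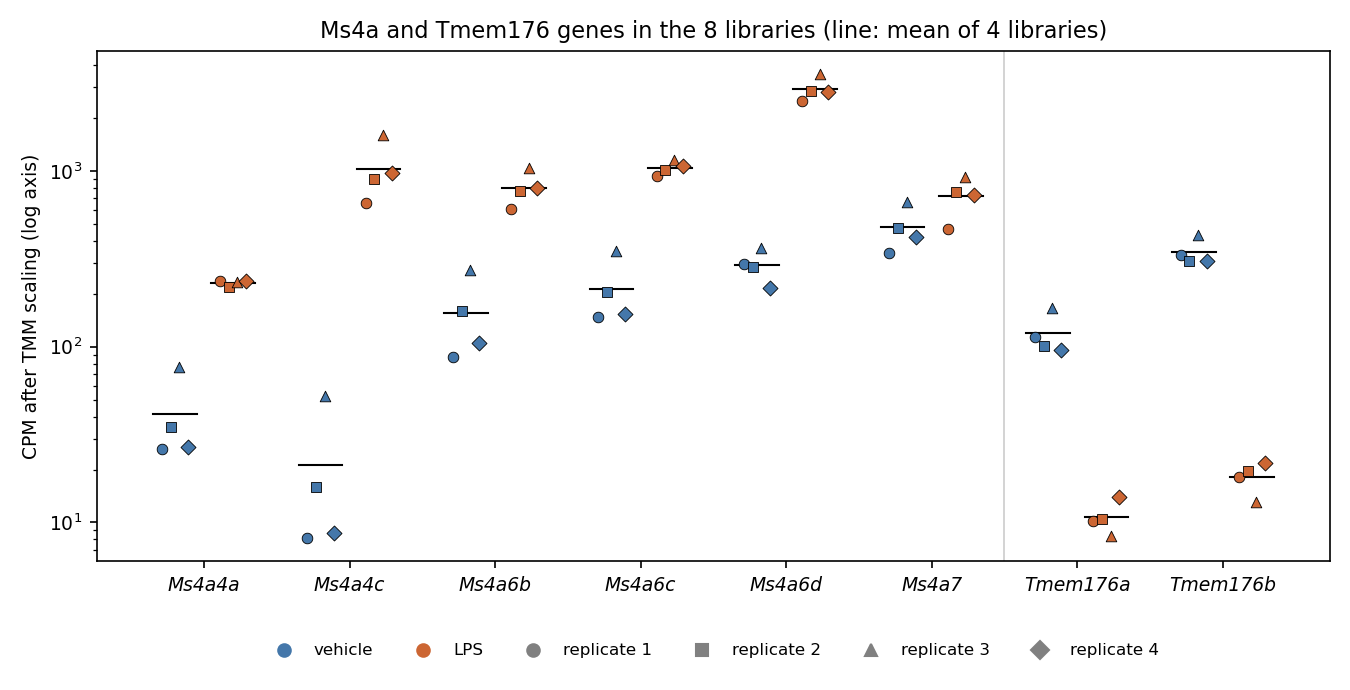
CPM after TMM scaling (log axis) of the 8 genes in every library, with vehicle in blue, LPS in orange, a marker shape for each replicate number and a line at the mean of 4 libraries. The 5 called Ms4a genes lie higher in every LPS library than in any vehicle library, the Ms4a7 groups overlap between 467 and 667 CPM, and both Tmem176 genes lie between 8.40 and 21.9 CPM in every LPS library.

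The 6 Ms4a genes lie within 284 kb of chromosome 19, and the Tmem176 pair lies on chromosome 6. Promoter sequences are printed for the Tmem176 pair, whose genes start head to head, and for Ms4a4c and its neighbour Ms4a4b, whose windows are similar. Ms4a4b had a far lower level per length. Any part of these sequences in the LPS response was not tested. They are RefSeq windows of GRCm38.p6, from 250 bases before to 50 bases after a transcript start, printed 5′ to 3′ on the strand of the gene. Capitals mark the matches, on either strand, to a kappaB motif, to the PU.1 core GAGGAA and to the AP-1 motif TGANTCA. PU.1 is the lineage factor of macrophages, and kappaB sites bind NF-kappaB.
Tmem176a, chr6:48841233-48841532, plus strand: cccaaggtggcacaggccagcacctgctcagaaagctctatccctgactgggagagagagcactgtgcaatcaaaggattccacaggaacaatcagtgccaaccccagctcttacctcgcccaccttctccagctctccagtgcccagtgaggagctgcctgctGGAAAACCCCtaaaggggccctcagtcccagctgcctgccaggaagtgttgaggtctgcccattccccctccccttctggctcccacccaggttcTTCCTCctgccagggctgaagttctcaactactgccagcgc
Tmem176b, chr6:48841325-48841624, minus strand: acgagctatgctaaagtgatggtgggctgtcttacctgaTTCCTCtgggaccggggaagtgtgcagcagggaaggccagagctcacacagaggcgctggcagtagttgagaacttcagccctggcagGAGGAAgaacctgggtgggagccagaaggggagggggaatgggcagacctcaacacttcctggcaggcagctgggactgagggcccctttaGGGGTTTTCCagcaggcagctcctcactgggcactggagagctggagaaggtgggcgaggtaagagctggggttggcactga
Ms4a4c, chr19:11407411-11407710, plus strand: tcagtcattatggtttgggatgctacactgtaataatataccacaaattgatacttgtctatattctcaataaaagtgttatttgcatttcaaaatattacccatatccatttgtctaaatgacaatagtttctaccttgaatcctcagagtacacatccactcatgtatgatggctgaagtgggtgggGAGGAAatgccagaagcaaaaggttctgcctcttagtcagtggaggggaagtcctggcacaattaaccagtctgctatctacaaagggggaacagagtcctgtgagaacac
Ms4a4b, chr19:11443308-11443607, plus strand: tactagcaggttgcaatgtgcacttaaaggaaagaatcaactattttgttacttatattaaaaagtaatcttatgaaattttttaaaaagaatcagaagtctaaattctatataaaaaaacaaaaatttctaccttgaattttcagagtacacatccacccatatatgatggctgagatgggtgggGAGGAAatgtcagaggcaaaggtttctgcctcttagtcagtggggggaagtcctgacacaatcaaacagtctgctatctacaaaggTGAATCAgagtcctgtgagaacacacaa

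RefSeq gives 2 starts for Tmem176a and 3 for Tmem176b, and 1 window of each gene is printed. These printed windows share 208 bases, and their starts are 109 bases apart. The kappaB match at bases 48841397 to 48841406 and the PU.1 core match at bases 48841492 to 48841497 lie in both windows, read from opposite strands. The other 2 windows of Tmem176b hold no match to any of the motifs. The Ms4a4c and Ms4a4b windows were identical at 237 of 321 aligned columns (73.8%). All other pairs among the first listed windows of Ms4a4a, Ms4a4b, Ms4a4c, Ms4a6b, Ms4a6c and Ms4a7 were 48.3% to 53.6% identical. The Ms4a4b window holds an AP-1 match that the Ms4a4c window lacks, and both hold a PU.1 core match.

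The RefSeq table held 11 windows for 7 of the 8 genes. Of these, 5 held a PU.1 core match, 3 a kappaB match (in Tmem176a, Tmem176b and Ms4a4a) and 1 an AP-1 match (in Ms4a7). The same motifs were found in 28.3%, 8.46% and 7.81% of all 32851 windows. None of the 11 held the interferon-stimulated response element (GAAA, any 2 bases, GAAA) or the gamma-activated site TTCNNNGAA, which 3.44% and 8.30% of all windows held. A match is a run of letters and not a measured site, and overlapping windows count the same match more than once.

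Ms4a6d (chr19:11586604-11604849, minus strand) is a mouse relative of human MS4A6A. Its vehicle levels were 295, 282, 366 and 216 CPM in replicates 1 to 4, and its LPS levels were 2498, 2846, 3555 and 2807.5 CPM. The lowest LPS library lay far above the highest vehicle library, and the mean went from 289.9 ± 61.2 to 2927 ± 447 CPM (SD, n = 4), 10.1-fold, with a log2 fold change of 3.34 (SE 0.20). By mean CPM it moved from place 366 to place 47 of the 13847 genes.

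Ms4a6c (chr19:11469366-11482192, plus strand) is another Ms4a6 copy. It had 147, 206, 350.2 and 153 CPM in vehicle and 930.2, 1006, 1155 and 1063 CPM after LPS. Groups were far apart, with a 4.86-fold difference of means (214 ± 94.7 to 1038 ± 94.8 CPM) and a log2 fold change of 2.28 (SE 0.27). The antisense gene BE692007 covers 53.1% of the exonic bases of Ms4a6c, and without the strand setting the reads of the 2 genes cannot be told apart. As counted, BE692007 itself stood at 1.82 ± 0.87 CPM in vehicle and 4.08 ± 0.68 CPM after LPS.

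Ms4a6b (chr19:11516512-11531256, plus strand) is the Ms4a6 copy next to it. Vehicle libraries held 87.8, 159, 271 and 104 CPM, and LPS libraries held 607, 763, 1044 and 794 CPM. The groups did not overlap, and the means of 156 ± 82.8 and 802 ± 181 CPM differed 5.15-fold (log2 fold change 2.37, SE 0.35). Of 4561 exonic windows of 50 bases, 3.57% were found in another gene, 117 of them in Ms4a6c and 40 in Ms4a6d, and since only uniquely aligned reads were counted, reads from such windows are missing.

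Ms4a4a (chr19:11375523-11392790, plus strand), the family member best known from alternatively activated macrophages, had 26.3, 34.7, 76.8 and 27.0 CPM in vehicle and 237, 218, 232 and 237 CPM after LPS. Vehicle replicate 3 stood well above the other vehicle libraries, while the LPS libraries agreed within a few percent (coefficient of variation 58.3% in vehicle and 4.01% after LPS). The mean went from 41.2 ± 24.0 to 231 ± 9.26 CPM, a 5.61-fold difference (log2 fold change 2.49, SE 0.33).

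Ms4a4c (chr19:11404770-11427246, plus strand) had the lowest vehicle level of the 8 genes and the largest rise. It stood at 8.16, 16.0, 52.1 and 8.70 CPM in vehicle and at 652, 895, 1589.5 and 971 CPM after LPS. Replicate 3 was the highest library in both groups. The mean went from 21.2 ± 20.9 to 1027 ± 399 CPM, 48.4-fold, with a log2 fold change of 5.59 (SE 0.68). Without vehicle replicate 3 the log2 fold change was 6.60 (SE 0.42), and without both replicate 3 libraries it was 6.34 (SE 0.33). By mean CPM the gene moved from place 5845 to place 160. Of its exonic windows 8.19% were shared, 135 of them with Ms4a4b.

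Ms4a7 (chr19:11321039-11336146, minus strand), a macrophage gene used as a marker of border-associated macrophages in the brain, had 339, 476, 667 and 422 CPM in vehicle and 467, 760.4, 917 and 732 CPM after LPS. Vehicle replicates 2 and 3 lay above LPS replicate 1, so the groups overlapped around means of 476 ± 139 and 719 ± 187 CPM. The ratio of means was 1.51, and the log2 fold change of 0.59 (SE 0.25) was not called. Within each pair of libraries with the same replicate number the LPS library was higher in CPM, by 0.46, 0.68, 0.46 and 0.79 on the log2 scale. These differences depend on the TMM factors, which were 1.21 to 1.32 for the vehicle libraries and 0.70 to 0.83 for the LPS libraries. Before scaling, Ms4a7 had 9688, 13755, 21034 and 11896 counts in vehicle and 7804, 13963, 19657 and 13533 after LPS. The log2 fold change was 0.60 (SE 0.12) with the replicate number as a block, 0.86 (SE 0.22) without vehicle replicate 3, 0.76 (SE 0.22) without LPS replicate 1, 0.74 (SE 0.21) without both replicate 3 libraries and 0.64 (SE 0.27) by DESeq2.

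Tmem176b (chr6:48833818-48841496, minus strand) had 331, 308, 434 and 305 CPM in vehicle and 18.1, 19.6, 13.01 and 21.9 CPM after LPS. No LPS library came near a vehicle library. The mean went from 345 ± 60.6 to 18.1 ± 3.75 CPM, 19.0-fold lower, with a log2 fold change of -4.25 (SE 0.20). By mean CPM the gene went from place 293 to place 6077.

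Tmem176a (chr6:48840919-48847071, plus strand) had 113, 100.4, 165 and 95.9 CPM in vehicle and 10.2, 10.5, 8.40 and 14.0 CPM after LPS. Its groups were apart as well, with means of 119 ± 32.0 and 10.8 ± 2.33 CPM, 11.0-fold lower after LPS (log2 fold change -3.47, SE 0.22). The 2 genes overlap head to head over 578 bases on opposite strands, and exons of the other gene cover 3.42% of the exonic bases of Tmem176b and 2.13% of those of Tmem176a.

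The counts of the pair did not keep a fixed proportion. There were 2.92, 3.07, 2.62 and 3.18 Tmem176b counts for each Tmem176a count in the vehicle libraries and 1.78, 1.86, 1.55 and 1.57 in the LPS libraries. The 2 ranges of this ratio were apart, with means of 2.95 ± 0.24 and 1.69 ± 0.16. Per kilobase of exon length the ratio was 4.74 ± 0.39 in vehicle and 2.72 ± 0.25 after LPS. Summed, the pair went from 463 ± 92.5 to 28.9 ± 5.93 CPM, while the 6 Ms4a genes together went from 1198 ± 409 to 6744 ± 1287 CPM.

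Levels of different genes were compared per kilobase of exon length. In vehicle the order of mean levels was Ms4a6d (167 CPM per kb), Tmem176b (145), Ms4a7 (107), Ms4a6c (104), Ms4a4a (49.3), Ms4a6b (34.7), Tmem176a (31.2) and Ms4a4c (12.1). The ranges of every pair of neighbours in that order overlapped, although for 4 of the 7 pairs the order held within each of the 4 vehicle libraries. After LPS, Ms4a6d led with 1687 CPM per kb, followed by Ms4a4c (586), Ms4a6c (507), Ms4a4a (276), Ms4a6b (179), Ms4a7 (161), Tmem176b (7.65) and Tmem176a (2.82). Here the neighbours were apart except for Ms4a4c and Ms4a6c, and for Ms4a6b and Ms4a7. Ms4a4c thus went from the last to the second place per length. With the length of the longest transcript, Tmem176b (209 CPM per kb) stood before Ms4a6d (204) in vehicle and Ms4a7 (199) before Ms4a6b (187) after LPS. Tmem176a then had 52.4 CPM per kb in vehicle, in the fifth place, and 4.74 after LPS. With the length counted only in windows found in no other gene, Ms4a6c stood first in vehicle (219.7 CPM per kb) and second after LPS (1067), a length that leaves out its antisense overlap. No reads were taken out of its counts, so these levels are too high if reads from the overlap were counted.

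**Figure D2:**
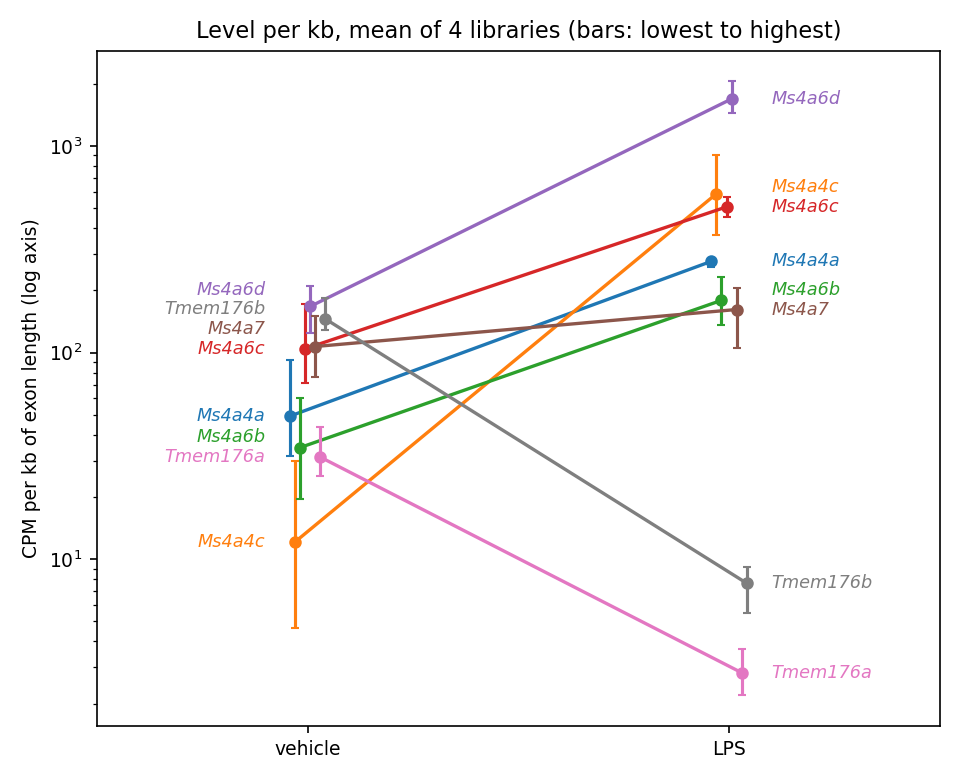
Mean level per kilobase of exon length (CPM per kb, log axis) of the 8 genes in the 4 vehicle and the 4 LPS libraries, with bars from the lowest to the highest library. In vehicle the neighbouring ranges overlap from 167 down to 12.1 CPM per kb, and after LPS the Tmem176 pair lies below 10 CPM per kb, apart from every Ms4a gene.

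The makeup of the Ms4a counts shifted with LPS. Ms4a7 held 37.5%, 40.5%, 37.4% and 45.3% of the summed counts of the 6 genes in the vehicle libraries and 8.66%, 11.7%, 10.8% and 11.1% in the LPS libraries. Ms4a6d went from 25.1% ± 5.26 to 43.6% ± 1.98 and Ms4a4c from 1.53% ± 0.95 to 14.8% ± 2.81, both with no overlap between groups. The shares of Ms4a6b (12.4% ± 2.44 and 11.8% ± 0.44), Ms4a6c (17.4% ± 1.57 and 15.6% ± 1.53) and Ms4a4a (3.27% ± 0.69 and 3.52% ± 0.69) overlapped. Per kilobase of exon length the share of Ms4a7 went from 22.9% ± 2.89 to 4.71% ± 0.66. On that scale the shares of Ms4a6c were apart (21.5% ± 1.99 in vehicle and 15.1% ± 1.28 after LPS), and the mean share of Ms4a4a was lower after LPS (9.87% ± 2.02 and 8.32% ± 1.498).

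**Figure D3:**
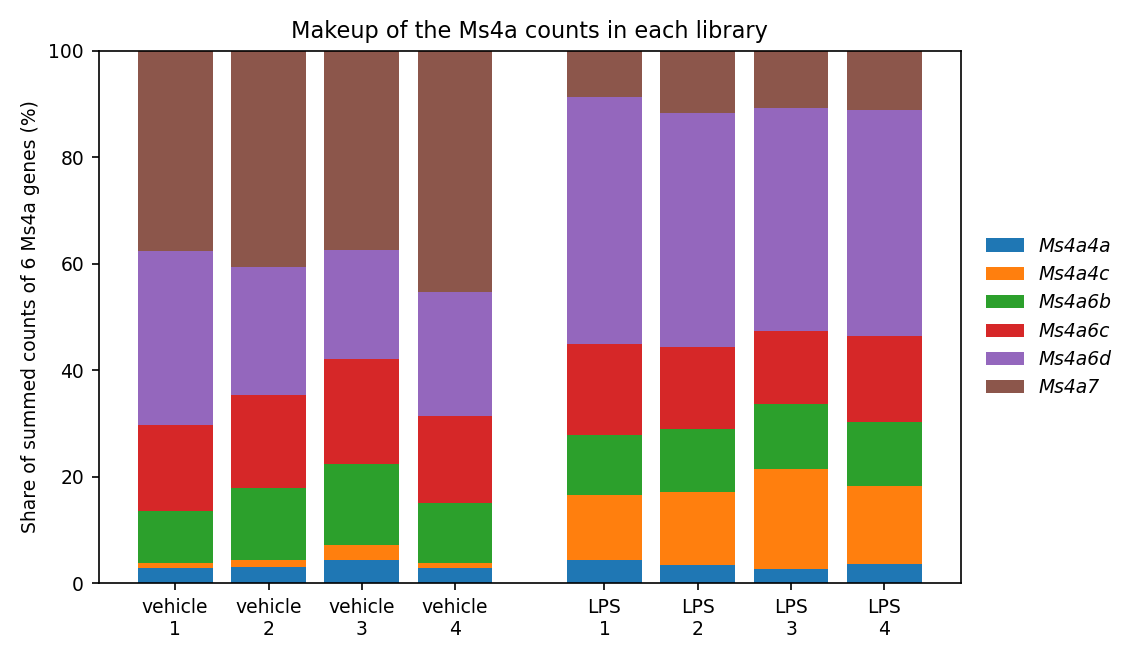
Share of each of the 6 Ms4a genes in their summed raw counts, in percent, 1 bar per library. Ms4a7 takes 37.4% to 45.3% of each vehicle bar and 8.66% to 11.7% of each LPS bar, and Ms4a6d is the largest part of every LPS bar.

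For these genes, libraries of the same group differed in a shared way. Replicate 3 was the highest vehicle library for 6 of 6 Ms4a genes and for both Tmem176 genes, and the highest LPS library for 5 of 6 Ms4a genes. The share of all tested genes highest in replicate 3 was not counted, so the pattern is not shown to be particular to these genes. The excess of vehicle replicate 3 over the mean of the other vehicle libraries was 4.76-fold for Ms4a4c, 2.62-fold for Ms4a4a, 2.31-fold for Ms4a6b, 2.08-fold for Ms4a6c, 1.62-fold for Ms4a7 and 1.38-fold for Ms4a6d. LPS replicate 3 was the lowest LPS library for both Tmem176 genes. Both replicate 3 libraries were the deepest of their group, with 26129375 and 30604447 counts. The interferon-stimulated genes Isg15, Ifit3 and Irf7, looked at after this was seen and on no list, were also highest in vehicle replicate 3. Isg15, a ubiquitin-like interferon product, stood at 80.9, 168, 259.8 and 85.8 CPM in vehicle, and Irf7, a transcription factor of the interferon response, at 208, 403, 627 and 203 CPM. Among the LPS libraries Isg15 and Ifit3 were highest in replicate 3, but Irf7 was lowest there (3802 CPM against 4116 to 4421 CPM in the others). Whether these levels and those of the Ms4a genes have a common source was not tested.

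Without both replicate 3 libraries, log2 fold changes were 3.06 for Ms4a4a, 2.70 for Ms4a6b, 2.65 for Ms4a6c, 3.44 for Ms4a6d, -3.08 for Tmem176a and -3.91 for Tmem176b.

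Other Ms4a genes of the cluster were mostly at or near 0. Of 13 in the table, 4 passed the filter, and 3 of these rose. Ms4a8a and Ms4a1 passed it only through the LPS libraries, where they were high, so their calls are descriptions and are given without p-values. Ms4a14, a poorly characterised family member just beyond Ms4a7, had 35.9, 56.2, 54.8 and 48.9 CPM in vehicle and 58.5, 124, 228 and 119 CPM after LPS. It was higher in all LPS libraries (48.9 ± 9.25 to 132 ± 70.5 CPM, log2 fold change 1.44, SE 0.35, edgeR adjusted p = 0.00489). Ms4a8a was almost absent from vehicle, with 2, 0, 0 and 0 counts, and had 13, 31, 43 and 25 counts after LPS. The ratio of its summed counts, scaled to library size, was 87.5 (exact 95% interval 23.7 to 731, counting error only), and it was called higher. Its fitted log2 fold change, which at such counts depends on the prior count, was 6.04, and 8.11 without vehicle replicate 1.

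Ms4a1, which encodes CD20, had 11, 7, 7 and 2 counts in vehicle and 14, 20, 19 and 13 after LPS. It was called higher (log2 fold change 1.91, SE 0.44), at 0.07 to 1.09 CPM.

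Ms4a4b, a lymphocyte gene with the promoter window most like that of Ms4a4c, stood at 0.35 to 2.00 CPM in vehicle and 1.02 to 3.08 CPM after LPS. Its log2 fold change of 0.98 (SE 0.54) was not called (edgeR adjusted p = 0.134). With the replicate block it was called (1.09, SE 0.30, edgeR adjusted p = 0.0123), as it was without vehicle replicate 3 (1.64, adjusted p = 0.0158) and without both replicate 3 libraries (1.36, adjusted p = 0.0297). Ms4a4d had no count in vehicle and 11, 15, 20 and 7 counts after LPS, at least 6.79-fold higher against a floor of 3 counts per library, but did not pass the filter and was not tested.

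Ms4a12 had 2, 1, 0 and 0 counts in vehicle and 0, 4, 11 and 3 after LPS, with overlapping groups. Ms4a2, the beta chain of the IgE receptor, and Ms4a3, Ms4a5 and Ms4a18 had at most 2 counts in any group. Ms4a10, Ms4a13 and Ms4a15 had none, and a count of 0 allows for up to 3 reads per library.

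Genes beside the clusters showed no single direction. Of 28 other protein-coding genes within 500 kb of the Ms4a genes, 10 were tested, 6 rose (5 with the replicate block, where Osbp lost its call at an adjusted p of 0.0729), 2 fell and 2 were not called (median log2 fold change 0.49). The largest rise was that of the predicted gene Gm8369, which starts between Ms4a6c and Ms4a6b (0.27 ± 0.11 to 4.54 ± 1.38 CPM, log2 fold change 4.03). Gm8369 passed the filter only through the LPS libraries. Slc15a3, a lysosomal peptide and histidine transporter, followed (354 ± 45.1 to 3123 ± 241 CPM, 3.14, edgeR adjusted p = 3.46e-07). Stx3, a syntaxin of membrane fusion, came next (25.0 ± 2.40 to 113 ± 63.4 CPM, 2.18, edgeR adjusted p = 0.000237). Tmem109 fell from 60.6 ± 6.92 to 21.4 ± 3.98 CPM (-1.499, edgeR adjusted p = 2.15e-05) and Prpf19, a splicing factor and ubiquitin ligase, from 72.8 ± 4.302 to 37.2 ± 4.10 CPM (-0.97, adjusted p = 3.31e-05).

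Around the Tmem176 pair, 12 of 29 such genes were tested, of which 2 rose, 7 fell and 3 were not called (median log2 fold change -0.53). Krba1 fell most, from 5.02 ± 0.67 to 0.99 ± 0.49 CPM (-2.35), but it passed the filter only through the vehicle libraries. Atp6v0e2, a subunit of the vacuolar proton pump, fell next (-1.85, edgeR adjusted p = 0.00726). Its groups overlapped (6.90 ± 2.83 CPM in vehicle and 1.93 ± 1.23 CPM after LPS). The zinc finger gene Repin1 followed (-1.84, edgeR adjusted p = 7.26e-05). Gimap6, a GTPase of the immune-associated family, rose from 0.13 ± 0.10 to 3.72 ± 2.20 CPM (4.81), but it passed the filter only through the LPS libraries. Ccdc126 rose from 6.20 ± 0.82 to 16.7 ± 1.84 CPM (1.42, edgeR adjusted p = 2.20e-05).

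**Figure D4:**
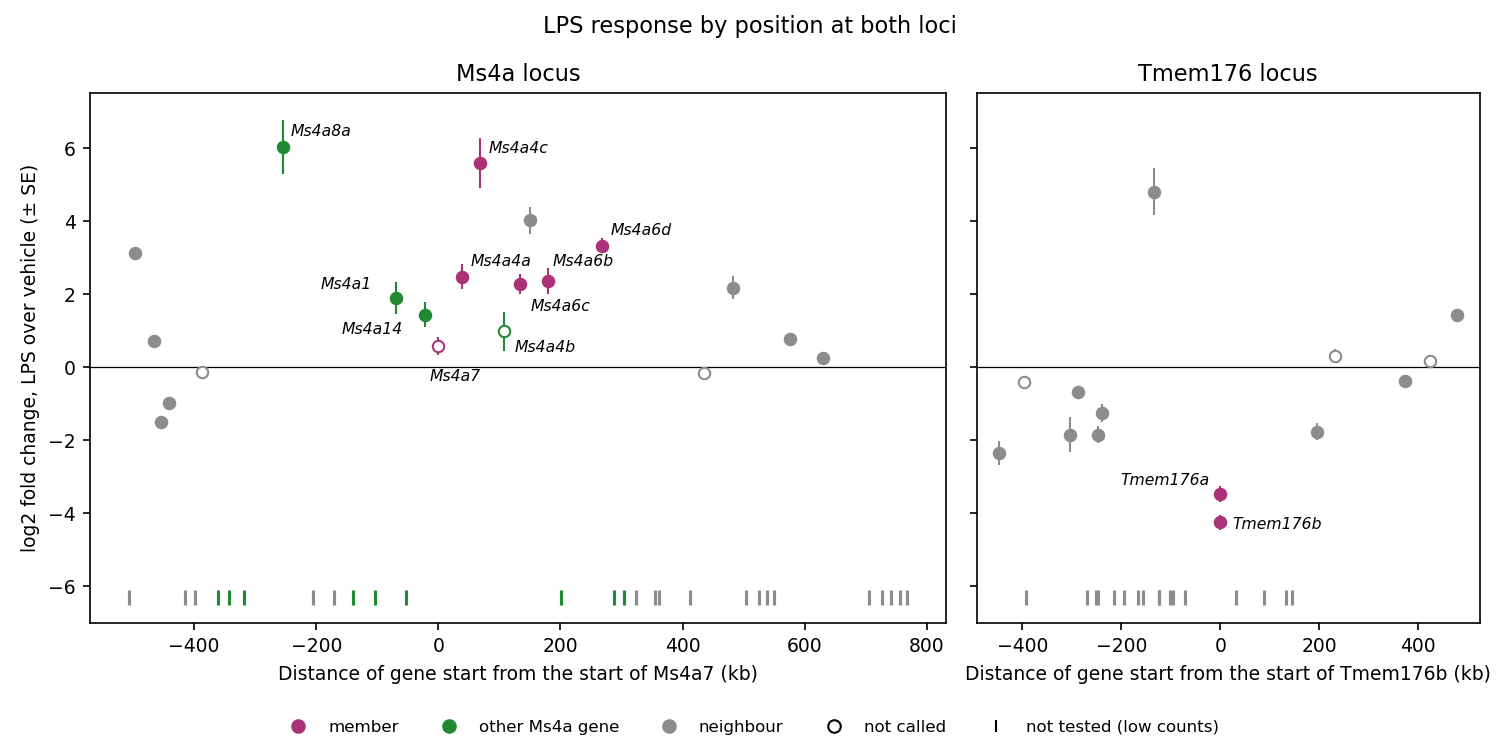
Log2 fold change of LPS over vehicle (± SE) against the distance of each gene's start from the start of Ms4a7 (left) or of Tmem176b (right), in kb along the chromosome. Filled points are called, open points are not, and ticks at the bottom are genes with too few counts to test. The named Ms4a genes lie above 0 between 0.59 and 6.04, and the Tmem176 pair lies at -3.47 and -4.25 among neighbours of either sign.

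Profiles over the 8 libraries were compared by the root mean square difference of log2 CPM centred on each gene's mean, over 11090 genes. Because this measure includes the LPS response, it describes the genes and tests nothing. Ms4a6c was nearest to Ifih1, a cytosolic sensor of double-stranded RNA (0.14), to Fcgr1, the high-affinity IgG receptor (0.16), and to Ms4a6b (0.17). Ms4a6b was nearest to Ms4a6c (0.17), Ifi211 (0.17) and Zbp1, a nucleic acid sensor (0.18), and Ms4a4a to Ms4a6c (0.19), the peptidoglycan sensor Nod1 (0.19) and Oas3, an antiviral oligoadenylate synthetase (0.23). Ms4a4c was nearest to the guanylate-binding protein genes Gbp5 (0.28) and Gbp4 (0.32) and to the chemokine gene Ccl12 (0.31).

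Ms4a6d was nearest to Psd4 (0.13), Mab21l3 (0.14) and Gm31166 (0.16), and Ms4a7 to Csrp1 (0.12), Asb13 (0.13) and Tmcc3 (0.14), none of them another Ms4a gene. Tmem176a was nearest to the DNA repair gene Mgmt (0.15), Rrad (0.16) and Lrmp (0.17), and Tmem176b to Kank2 (0.16), the myeloid transcription factor gene Cebpa (0.21) and Tbc1d16 (0.23). The 2 Tmem176 genes differed from each other by 0.42.

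Variants of the human MS4A cluster are linked to soluble TREM2, and the fungal receptor Dectin-1 is a known partner of MS4A4A. Of 9 genes around these receptors, 7 fell and 2 rose (median log2 fold change -1.004, against -0.11 over all tested genes). Trem2, a lipid receptor of microglia, fell from 549 ± 33.4 to 13.4 ± 6.20 CPM (-5.36, edgeR adjusted p = 8.73e-07), and Clec7a, which encodes Dectin-1, from 428 ± 69.5 to 65.2 ± 40.3 CPM (-2.71, adjusted p = 0.000392). Apoe, the main lipid carrier of glia, fell as well (-1.44, edgeR adjusted p = 0.00957). The kinase gene Syk rose from 238 ± 76.3 to 1255 ± 112 CPM (2.40, edgeR adjusted p = 1.28e-05) and Fcer1g, the common Fc receptor gamma chain, from 530.2 ± 55.2 to 1643 ± 118 CPM (1.63, adjusted p = 5.37e-06).

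Genes of alternative activation and of the glucocorticoid response, settings in which Ms4a4a is best known, were split. Of 11 tested among 16, 6 rose, 4 fell and 1 was not called (median 0.44). The 1, Folr2, a folate receptor of macrophages, was called lower with the replicate block (-0.65, edgeR adjusted p = 0.00218). Of the untested genes, Retnla and Chil3 had no count in any library, and Ccl17 had at most 2. Mgl2 had 1, 4, 15 and 3 counts in vehicle and 0 in every LPS library. Cd163 had 18, 11, 22 and 7 counts in vehicle and 2, 0, 0 and 5 after LPS, with overlapping groups. Arg1, arginase of alternatively activated macrophages, rose from 0.11 ± 0.09 to 169 ± 131 CPM, but it passed the filter only through the LPS libraries. Il10 rose from 1.34 ± 0.51 to 296 ± 46.2 CPM (7.78, edgeR adjusted p = 1.05e-07). Il4ra, the interleukin 4 receptor, rose from 155 ± 45.6 to 1876 ± 621 CPM (3.60, edgeR adjusted p = 8.35e-06). The mannose receptor Mrc1 fell from 650.5 ± 197 to 38.9 ± 6.63 CPM (-4.07, edgeR adjusted p = 8.73e-07), the scavenger receptor Stab1 from 2239 ± 288 to 475 ± 169 CPM (-2.24, adjusted p = 7.39e-05) and Tsc22d3, a glucocorticoid target, from 27.8 ± 2.46 to 10.8 ± 5.80 CPM (-1.36, adjusted p = 0.00489).

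Class II antigen presentation and the inflammasome are the processes named for Tmem176b. Of 9 class II genes tested among 13, 2 rose, 1 fell and 6 were not called (median -0.12). H2-Ab1, a class II chain, rose from 1.55 ± 1.12 to 24.3 ± 7.42 CPM (3.97, edgeR adjusted p = 9.07e-05), Rfxank, a subunit of the class II regulator RFX, rose slightly (0.48, adjusted p = 0.00605), and the peptide loading gene H2-DMb1 fell (-1.10, adjusted p = 0.0027). Among the untested genes, Ciita had 40, 11, 31 and 6 counts in vehicle and 0 in every LPS library. H2-Aa had 18, 6, 31 and 3 counts in vehicle and 2, 1, 6 and 0 after LPS, with overlapping groups, and the groups of H2-Eb1 and H2-DMb2 overlapped as well. Of 10 inflammasome genes 7 rose, 2 fell and 1 was not called (median 1.77). The largest rises were those of Il1b (41.3 ± 27.6 to 3426 ± 1637 CPM, 6.38, edgeR adjusted p = 1.19e-05), Casp4, the sensor of cytosolic LPS (2.81, adjusted p = 1.06e-05), and Nlrp3 (78.9 ± 1.96 to 488 ± 78.7 CPM, 2.63, adjusted p = 4.01e-07). The adaptor gene Pycard fell from 41.1 ± 5.34 to 13.8 ± 2.77 CPM (-1.57, edgeR adjusted p = 2.44e-05), as did Nek7, an NLRP3 partner (-0.88, adjusted p = 0.00165).

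The microglia label was checked with markers. Of 10 genes of homeostatic microglia 9 were tested, 8 fell after LPS and 1, Tmem119, was not called (edgeR adjusted p = 0.0589), though with the replicate block it was called lower (-1.33, adjusted p = 0.000911). Their sum ranged from 6126 to 6982 CPM in vehicle and from 628 to 1101 CPM after LPS. Csf1r (3181 ± 378 CPM) and Cx3cr1 (989 ± 211 CPM) were abundant in vehicle, whereas Tmem119 (9.40 ± 4.89 CPM) and P2ry12 (33.8 ± 11.6 CPM) were low and Siglech stood at 0.04 CPM. Of 10 markers of border-associated macrophages, among which Ms4a7 is often counted, 8 were tested, 5 fell, 2 rose and 1 was not called (6 fell and 2 rose with the replicate block), with sums of 3064 to 4616 CPM in vehicle and 2010 to 4035 CPM after LPS. Mrc1 (above) and F13a1 (28.2 ± 12.3 to 1.28 ± 0.59 CPM, -4.47, edgeR adjusted p = 1.15e-05) fell, and Clec10a went from 4.49 ± 5.61 CPM to no count in any LPS library. Cbr2 rose from 1.30 ± 1.19 to 6.10 ± 2.54 CPM (2.22, edgeR adjusted p = 0.0076), as did Siglec1, a sialic acid receptor (601 ± 215 to 2552 ± 663 CPM, 2.09, adjusted p = 0.000173). In vehicle Lyve1 averaged 0.0089 CPM and Cd163 0.49 CPM.

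Of other cell types, Cd3e, Cd3d, Nkg7 and Ncr1 (T and NK cells), Fcer1a, Mcpt4 and Tpsb2 (mast cells) and Cd209a (dendritic cells) had no count in any library. Other members of these lists were counted. Cd4 had 77 to 203 counts in vehicle and 7 to 14 after LPS, and Lck 16 to 39 over all libraries. Xcr1 of the dendritic cell list had 9 to 20 counts in vehicle and 92 to 380 after LPS, and Ccr7 none in vehicle and 5 to 14 after LPS. The monocyte gene Ly6c2 had at most 16 counts in a library and the neutrophil gene Ly6g at most 3. Summed markers went from between 0.0692 and 0.875 CPM to between 572 and 1176 CPM for neutrophils. Nearly all of this was S100a8 (777 ± 270 CPM after LPS), the only gene of that list tested and called. S100a9, Mpo and Retnlg had no count in any library, and Elane and Ngp at most 1. Camp had 3, 0, 1 and 0 counts in vehicle and 50, 6, 11 and 6 after LPS. The sums were 228 to 1375 CPM in vehicle and 120 to 407 CPM after LPS for monocytes, 3.22 to 4.95 and 6.52 to 19.2 CPM for dendritic cells, 106 to 113 and 71.3 to 164 CPM for B cells, where Blnk held most of the reads, and 20.01 to 46.9 and 41.0 to 123 CPM for astrocytes, where Gja1 rose (0.87 ± 0.22 to 48.6 ± 33.2 CPM) and Aqp4, Aldh1l1 and Gfap fell. They were 92.9 to 146 and 17.6 to 23.5 CPM for the oligodendrocyte lineage, and 31.2 to 73.9 and 163 to 254 CPM for endothelial cells. There 3 of 3 tested genes rose (Pecam1, Cdh5 and Flt1). Of the untested endothelial genes, Cldn5 had no count in any library, Tek at most 2 and Esam at most 3. Egfl7 had 4 to 25 counts in vehicle and 1 to 3 after LPS. For fibroblasts the sums were 0.497 to 4.31 and 5.30 to 21.4 CPM. Dcn rose (0.14 ± 0.09 to 8.90 ± 7.07 CPM) and Pdgfrb was not called, while the collagen genes Col1a1, Col1a2 and Col3a1 had too few counts to test. Sums were 3.98 to 7.95 and 1.31 to 2.15 CPM for T and NK cells, and 1.93 to 5.11 and 33.2 to 45.4 CPM for mast cells, where Hdc rose and Kit was not called. The part of other cells in the levels of the 8 genes was not tested.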

How the data were processed

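RNA of microglia from 4 vehicle and 4 LPS cultures was measured. The authors deposited raw counts per Ensembl gene, made with HTSeqGenie 4.30 from uniquely aligned reads (GSNAP, GRCm38), without normalization. The annotation release is not given in the sources used here. All columns matched a sample by its label. Names, positions and exon lengths came from GENCODE vM21, and promoters from RefSeq (GRCm38.p6).

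After filterByExpr (minimum count 10, minimum total 15), 13847 genes were tested in R 4.3.3 with the two-sided quasi-likelihood test of edgeR 4.0.16 and TMM factors. A gene was called at a Benjamini-Hochberg adjusted p under 0.05. Genes with few counts in either group can pass the filter through the other group alone. Those that passed only through the LPS libraries include Ms4a8a, Ms4a1, Gm8369, Gimap6, Arg1, S100a8, Dcn and Hdc. Krba1, Clec10a, Aqp4, Gfap, Cd4 and Batf3 are among those that passed only through the vehicle libraries. The calls of all these genes are descriptions. CPM used TMM-scaled library sizes. Counts of up to 3 in each library of a group were taken as the floor, and the intervals from counts are Clopper-Pearson and cover counting error only. The fits were tested on simulated data.

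Alternatives were DESeq2 1.42.0, DESeq2 size factors in edgeR, upper quartile normalization, 2 other filters, a replicate block, stricter thresholds, other gene lengths and leaving out libraries. Leaving out both replicate 3 libraries was added after seeing the data. Genes and lists were chosen with earlier results of these data known. Named genes are the 8 described, all other Ms4a genes, up to 3 called genes with the largest rise and up to 3 with the largest fall in a list, and the 3 nearest profiles. Further marker genes, untested list members, Isg15, Ifit3, Irf7 and genes whose call depended on the settings were named after their values were seen. A few list members are counted but not named here.

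The labels number the replicates in both groups without saying what a number shares. The r between the deviations of same-numbered libraries from their group means was 0.37, 0.20, 0.17 and 0.11 over 8010 genes. Exchanging replicates 2 and 4 gave 0.14 and 0.15. The main fit therefore had no block, its calls ignore any pairing, and the replicate block was fitted as an alternative. No label names a batch or date.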

Additional observations from a re-analysis of the deposited data

Results flagged for a closer look

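Of 24 sets of 4 libraries looked at for a library far from the others (Dixon's criterion, which chance alone meets in about 1 in 20 sets), 2 held one. For Ms4a4a, vehicle replicate 3 had 76.8 CPM, while the other vehicle libraries had 26.3 to 34.7 CPM. The same library was also the highest vehicle library for Ms4a4c, Ms4a6b, Ms4a6c, Ms4a6d and Ms4a7, and for Isg15, Ifit3 and Irf7. For Ms4a8a, vehicle replicate 1 had 0.0700 CPM, which was 2 counts, and the other vehicle libraries had none.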

How the results depend on the processing

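Calls of the 8 genes, which the same contrast chose, are given only to describe the fit: 7 had the same direction and call under each of 15 alternatives (log2 fold changes of 5.31 to 6.60 for Ms4a4c, 3.18 to 3.52 for Ms4a6d, 2.34 to 3.06 for Ms4a4a, 2.19 to 2.83 for Ms4a6b, 2.13 to 2.69 for Ms4a6c, -3.61 to -3.08 for Tmem176a and -4.39 to -3.91 for Tmem176b). Ms4a7 ranged from 0.43 to 0.86 and was called in 5 of them (with DESeq2, with the block and without vehicle replicate 3, LPS replicate 1 or both replicate 3 libraries). The replicate block called 9044 genes against 8877 without it and changed the call of Ms4a7 and Ms4a4b and of no other Ms4a or Tmem176 gene. In the other lists it changed at most 2 calls a list. Upper quartile normalization moved the median of all tested genes by -0.16.

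Of the other Ms4a genes, 3 were called, against 5 with no filter on low counts, 1 when at least 10 counts were required in every library (which leaves fewer of them tested) and 3 to 5 when 1 library was left out, 5 of them without vehicle replicate 3. Requiring a log2 fold change of at least 1 left 5222 genes called, 2224 higher and 2998 lower, and 11 of the 17 called neighbours. Among the genes of the lists that were called, Card9 lost its call in 11 of 15 alternatives, Osbp in 7, Igf2bp3 in 6, Il10ra in 4 and Pf4 in 2, and Batf3 in 9 and Gfap in 4 of 14. The cause was not tested.

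Levels per length rest on the chosen transcripts, and the reads of Ms4a6c and its antisense partner cannot be told apart.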
